A study of Mus musculus with 6 samples.

Results

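The genes described here are 33 mouse genes of sterol and fatty acid synthesis, chosen by name from the mevalonate pathway, the steps from squalene to cholesterol, the sterol regulatory element-binding protein (SREBP) system, fatty acid synthesis, desaturation and elongation, and sterol transport. All 33 were found among the 23337 genes of the deposited count table, and all 33 passed the filter on low counts, after which 14587 genes were tested. Their RNA was measured by RNA-seq of polyadenylated RNA from cardiomyocytes, the contractile cells of the heart, isolated by Langendorff perfusion and purified by flow sorting. Wild-type mice received an adeno-associated virus (AAV) on postnatal day 1 and were 4 weeks old when the cells were taken. The 3 groups of 2 libraries each received AAV-GFP, which delivers green fluorescent protein and served as the control, AAV-XBP1S or AAV-ATF6N. The strain, the sex and number of mice behind each library, the promoter of each vector and the vector dose are not stated in any label. Labels do not say that the libraries of a group came from separate animals, so p-values measure only the spread between these libraries, which may be technical.

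XBP1S names the active protein made from spliced Xbp1 RNA, a transcription factor, and ATF6N names the part of ATF6 that is cut free and acts in the nucleus. Both belong to the unfolded protein response of the endoplasmic reticulum (ER). Cholesterol is built from acetyl-CoA through mevalonate and squalene, and fatty acids are built from acetyl-CoA through malonyl-CoA. Many enzymes of both routes are targets of the SREBP transcription factors, which are held in the ER with the escort protein SCAP and the retention proteins INSIG1 and INSIG2, and are cut free in the Golgi by the same proteases that release the ATF6 fragment. The heart burns fatty acids more than it makes them, and there malonyl-CoA also acts as a brake on their entry into mitochondria. The comparisons asked how the RNA of these genes differed between hearts given either factor and control hearts, and between the 2 factors.

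Fasn in the AAV-ATF6N libraries had the smallest p-value of the 33 genes against AAV-GFP. Promoters of the 4 genes with the smallest p-values between AAV-ATF6N and AAV-XBP1S are shown here because those genes carry the differences described next: Fasn (fatty acid synthase), Acacb (acetyl-CoA carboxylase 2), Sc4mol (the older symbol of Msmo1, methylsterol monooxygenase) and Mvd (diphosphomevalonate decarboxylase). Each run is the 250 bases before the RefSeq start site of the GRCm38.p6 build, written 5′ to 3′ on the gene's own strand. Capitals mark CCAAT, the core of the site of the factor NF-Y, and CCACG, the part of the ER stress response element that ATF6 is known to bind, on either strand (ATTGG and CGTGG on the other); neighbouring sites may overlap.
Fasn (chr11:120824548-120824797, minus strand): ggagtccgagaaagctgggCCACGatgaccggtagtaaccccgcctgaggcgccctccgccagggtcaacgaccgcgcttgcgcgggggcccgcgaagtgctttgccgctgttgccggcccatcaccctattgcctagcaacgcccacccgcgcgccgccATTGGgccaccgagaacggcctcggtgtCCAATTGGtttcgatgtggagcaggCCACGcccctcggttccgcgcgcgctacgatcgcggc
Acacb (chr5:114165268-114165517, plus strand): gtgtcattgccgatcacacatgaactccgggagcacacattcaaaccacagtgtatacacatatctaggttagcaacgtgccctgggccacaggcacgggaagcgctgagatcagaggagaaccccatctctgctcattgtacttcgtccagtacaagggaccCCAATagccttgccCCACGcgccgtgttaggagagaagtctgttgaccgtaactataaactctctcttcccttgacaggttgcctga
Sc4mol (chr8:64733579-64733828, minus strand): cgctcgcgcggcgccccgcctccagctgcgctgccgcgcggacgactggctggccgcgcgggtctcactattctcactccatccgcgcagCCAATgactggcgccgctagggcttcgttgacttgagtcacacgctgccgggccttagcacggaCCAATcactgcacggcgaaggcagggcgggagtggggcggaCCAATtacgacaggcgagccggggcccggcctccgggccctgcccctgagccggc
Mvd (chr8:122443423-122443672, minus strand): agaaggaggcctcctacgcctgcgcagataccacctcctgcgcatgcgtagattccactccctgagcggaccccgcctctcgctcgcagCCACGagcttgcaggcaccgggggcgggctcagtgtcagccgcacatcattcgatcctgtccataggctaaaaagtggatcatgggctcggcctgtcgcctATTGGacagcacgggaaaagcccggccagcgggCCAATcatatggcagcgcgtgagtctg
The Acacb run holds CCAAT, 9 bases and CCACG in a row, which is the spacing of the ER stress response element, at bases 164 to 182 of the window.

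RefSeq promoter windows of 300 bases, 250 before and 50 after the start, were matched for 26 of the 33 genes, with 34 windows in all because 5 genes had several starts. CCAAT was in 23 of the 34 windows (67.6%) and in 37.4% of all 32851 windows of that length. CCACG was in 16 (47.1%) against 32.8% of all. The spaced element was in 1, that of Acacb (2.94%), against 39 of all windows (0.119%). CACCCCAC, the core of the classical sterol response element, was in 1 (2.94%), that of Hmgcs1, against 2.87%, and GACGTG, a core shared by elements of the unfolded protein response, in 2 (5.88%) against 6.38%. All motifs were searched on both strands, CCAAT and CCACG lie within the spaced element, and a match is a description of letters, not of binding.

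Libraries held between 67702482 and 112049342 counts, so counting error was small for all but the lowest genes. Levels are CPM (counts divided by library size and scaled to 1e+06) on library sizes adjusted by the trimmed mean of M-values (TMM). Each delivered gene was highest in the libraries labelled with it: Xbp1 was at 98.0 and 115 CPM in AAV-GFP, 160.4 and 166 with AAV-XBP1S, and 145 and 152 with AAV-ATF6N. Atf6 was at 44.9 and 70.6 CPM in AAV-GFP, 77.0 and 111 with AAV-XBP1S, and 162 and 158 with AAV-ATF6N. The table does not separate delivered from native transcripts or spliced from unspliced Xbp1. The first AAV-GFP library had the highest share of the ribosomal RNA gene Rn45s, at 0.337% of its counts against 0.0319% to 0.130% in the other 5. The median absolute log2 ratio between the AAV-GFP replicates was 0.576 over all genes, against 0.376 in AAV-XBP1S and 0.127 in AAV-ATF6N. Such a ratio does not tell which replicate of a pair departs. The 10 cardiomyocyte markers summed to 118440 and 104790 CPM in AAV-GFP, 93417 and 94744 with AAV-XBP1S, and 127720 and 126940 with AAV-ATF6N. These sums did not overlap between the groups, but the markers did not move together. Myh6 alone was at 22991 and 41121 CPM in AAV-GFP, 26506 and 44246 with AAV-XBP1S, and 66565 and 65071 with AAV-ATF6N. Ttn and Actn2 were also above both controls in both AAV-ATF6N libraries. Tnnt2, Myl2, Myl3 and Tnni3 were below both controls there, and Actc1, Pln and Ryr2 overlapped them. The part of these markers in the differences was not tested. The female transcript Xist was at 24.6 and 7.88 CPM in AAV-GFP, 43.1 and 20.2 with AAV-XBP1S, and 0.197 and 0.0919 with AAV-ATF6N. The Y-linked Ddx3y was at 11.6 and 21.0, 0.0215 and 0, and 94.0 and 89.7 CPM in the same order, so the sex of the mice moved with the group and cannot be told apart from the vector in any comparison given here.

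Markers of other cells were summed because several of the 33 genes are abundant in fat and in glia. Of 10 adipocyte markers, Adipoq, Plin1, Cfd, Lep, Cidec, Retn, Adrb3 and Ucp1 stayed under 1 CPM in every library, and the list's sum, 781 and 343 CPM in AAV-GFP, 639 and 467 with AAV-XBP1S, and 223 and 218 with AAV-ATF6N, came from Fabp4 and Cidea. The 7 Schwann cell markers summed to between 4.11 and 6.76 CPM, with Sox10, S100b and Gfap under 1 CPM in every library. The 10 endothelial markers summed to 658 and 953 CPM in AAV-GFP, 1072 and 1425 with AAV-XBP1S, and 651 and 602 with AAV-ATF6N, and the 9 fibroblast markers to 476 and 611, 825 and 972, and 838 and 801. The 10 cell cycle genes summed to 3.64 and 4.11, 32.8 and 34.9, and 24.8 and 25.8 CPM. The part of these in the differences was not tested, and in bulk RNA fewer cells of a type and less RNA per cell cannot be told apart.

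**Figure D1:**
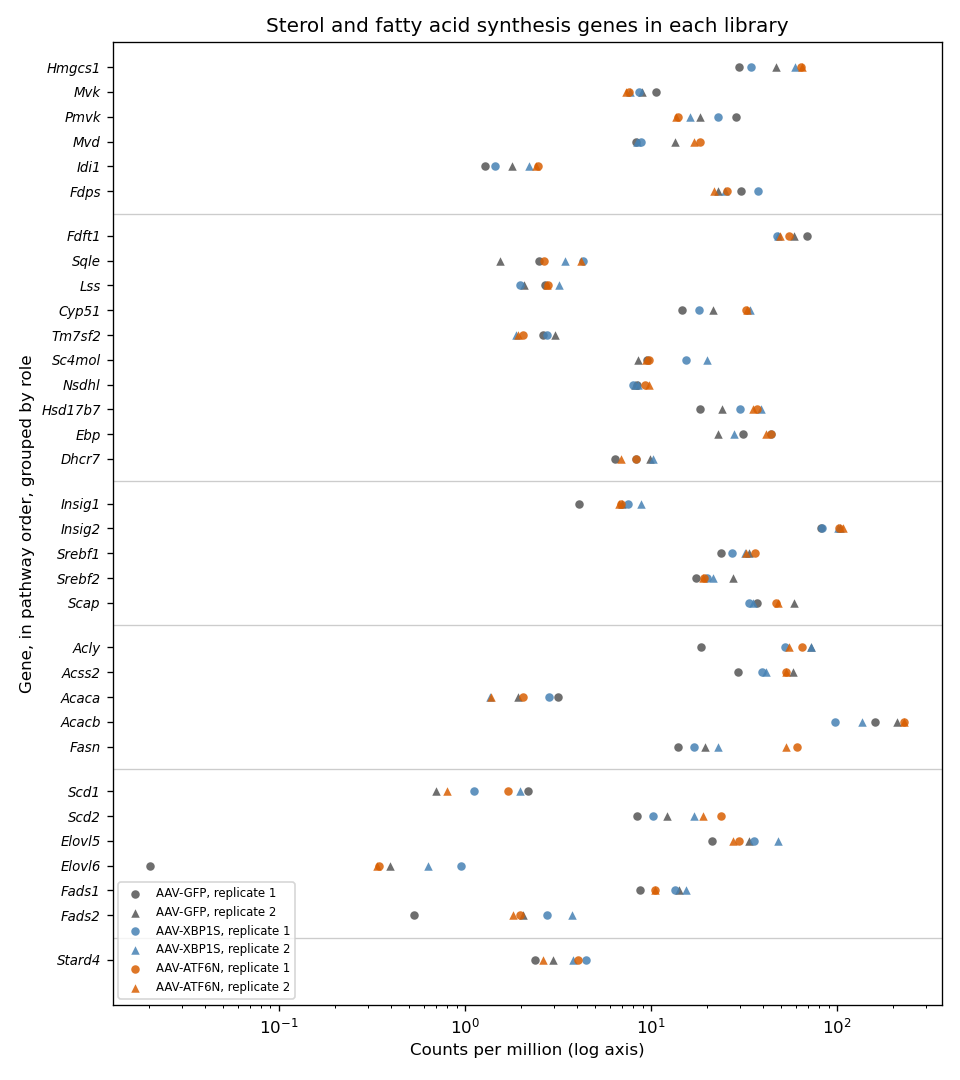
Level of each of the 33 genes in each of the 6 libraries, in CPM on a log axis, with genes grouped by role and in pathway order. Circles are replicate 1 and triangles replicate 2; the AAV-ATF6N pairs lie close together for most genes, the AAV-GFP pairs lie further apart, and Fasn has both AAV-ATF6N points (60.6 and 53.1 CPM) clear of the other 4.

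Levels per length spanned a wide range. The ER retention gene Insig2 had the highest level of the 33 in every library, at a mean of 36.8 CPM per kilobase in AAV-GFP, 36.4 with AAV-XBP1S and 41.6 with AAV-ATF6N. The order below it differed between the groups. In the same order of groups, Acacb was at 21.8, 13.8 and 27.0 CPM per kilobase, the squalene synthase Fdft1 at 22.3, 16.7 and 18.1, the sterol isomerase Ebp at 15.6, 20.8 and 24.5, and the farnesyl diphosphate synthase Fdps at 18.2, 21.4 and 16.2. The elongase Elovl6, Acaca and the desaturase Scd1 had the lowest means in each group, at 0.0750, 0.235 and 0.292 CPM per kilobase over all 6 libraries. Acaca and Acacb encode the cytosolic and the mitochondrial acetyl-CoA carboxylase, the form that supplies fatty acid synthesis and the form linked to control of fatty acid oxidation. Over all 6 libraries Insig2 (38.3 CPM per kilobase) likewise stood above its relative Insig1 (2.58), and the brain-enriched desaturase Scd2 (2.76) above Scd1, whereas Srebf1 (7.17) and Srebf2 (4.54) were closer to each other.

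The spread between replicates set the scale for everything that follows. Between the 2 AAV-GFP libraries the 33 genes differed by a median absolute log2 ratio of 0.569, and 22 of them were lower in replicate 1. In AAV-XBP1S the median was 0.429, with 23 lower in replicate 1. In AAV-ATF6N it was 0.084, with 7 lower in replicate 1. Differences between replicates over 2-fold were seen for 4 genes in AAV-GFP, 1 in AAV-XBP1S and 1 in AAV-ATF6N. Acly, which makes cytosolic acetyl-CoA from citrate, showed this most plainly among the well-measured genes, at 18.6 and 72.2 CPM in AAV-GFP, 52.1 and 72.1 with AAV-XBP1S, and 64.5 and 54.9 with AAV-ATF6N. Its level in the first AAV-GFP library was far below that in the other 5, which overlapped. Summed over the 33 genes, the level was 706.7 and 929.1 CPM in AAV-GFP, 742.45 and 879.83 with AAV-XBP1S, and 1027.8 and 987.53 with AAV-ATF6N, so the sum in both AAV-ATF6N libraries was above that in the other 4.

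In the mevalonate steps, which lead from acetyl-CoA to the isoprenoid units, no gene passed the threshold of an adjusted p of 0.05 in any comparison (edgeR's quasi-likelihood test, Benjamini-Hochberg over all genes tested). Hmgcs1, which makes the HMG-CoA that enters the pathway, was at 29.6 and 47.0 CPM in AAV-GFP, 34.5 and 59.4 with AAV-XBP1S, and 64.2 and 64.6 with AAV-ATF6N. Both AAV-ATF6N libraries were above all others, and of the AAV-XBP1S libraries one lay between the 2 controls and one above them. Its log2 fold change against AAV-GFP was 0.75 (SE 0.33) in AAV-ATF6N (edgeR adjusted p = 0.379) and 0.29 (SE 0.33) in AAV-XBP1S (edgeR adjusted p = 0.750). Without the first AAV-GFP library these were 0.45 and -0.01, and without the second 1.13 and 0.70.

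Mvd (chr8:122433596-122443422, mm10), whose enzyme forms isopentenyl diphosphate, was at 8.32 and 13.4 CPM in AAV-GFP, 8.81 and 8.40 with AAV-XBP1S, and 18.3 and 17.1 with AAV-ATF6N. The AAV-ATF6N libraries were the highest, while both AAV-XBP1S libraries sat at the level of the lower control. The fold change was 1.63 in AAV-ATF6N against AAV-GFP, a log2 fold change of 0.71 (SE 0.28) with an edgeR adjusted p of 0.356. It was 0.40 without the first AAV-GFP library and 1.10 without the second (edgeR adjusted p = 0.594 and 0.0332). Between AAV-ATF6N and AAV-XBP1S the log2 difference was 1.04 (SE 0.28), with an edgeR adjusted p of 0.177; DESeq2 put the same difference at an adjusted p of 0.0314.

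Pmvk, the kinase of the step before Mvd, went the other way and was at 28.5 and 18.2 CPM in AAV-GFP, 22.9 and 16.2 with AAV-XBP1S, and 13.9 and 13.5 with AAV-ATF6N. Both AAV-ATF6N libraries were below all others, by a log2 fold change of -0.77 (SE 0.30) against AAV-GFP (edgeR adjusted p = 0.353). It was -0.41 without the first AAV-GFP library, -1.04 without the second (edgeR adjusted p = 0.662 and 0.0379) and -0.46 with an offset for gene length. The remaining mevalonate genes lay between -0.39 (Mvk, mevalonate kinase) and 0.67 (Idi1, the isopentenyl diphosphate isomerase) on the log2 scale in AAV-ATF6N, and between -0.26 and 0.24 in AAV-XBP1S, with Fdps, which joins the isoprenoid units, in between. Neighbouring enzymes of one route thus had opposite signs in AAV-ATF6N, with 3 of the 6 genes above and 3 below 0, or 4 and 2 without the first AAV-GFP library and with the gene-length offset.

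Among the 10 genes from squalene to cholesterol, Sc4mol (chr8:64718145-64733578, mm10), which removes methyl groups from the sterol ring, set the 2 factors apart most. Its level was 9.53 and 8.53 CPM in AAV-GFP, 15.4 and 20.0 with AAV-XBP1S, and 9.76 and 9.39 with AAV-ATF6N. Both AAV-XBP1S libraries were clear of the other 4, which lay close together. The log2 fold change of AAV-XBP1S against AAV-GFP was 0.97 (SE 0.23), a fold change of 1.96, with an edgeR adjusted p of 0.210 and a DESeq2 adjusted p of 0.0278. In the authors' deposited table it was 0.96 (SE 0.39), with an adjusted p of 0.379. Against AAV-XBP1S, AAV-ATF6N differed by -0.89 (SE 0.23) on the log2 scale, with an edgeR adjusted p of 0.169 and a DESeq2 adjusted p of 0.0398.

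Hsd17b7, a sterol ketoreductase of the same stretch, was at 18.2 and 23.9 CPM in AAV-GFP, 29.9 and 39.0 with AAV-XBP1S, and 37.0 and 35.1 with AAV-ATF6N. All 4 libraries given a factor were above both controls. AAV-XBP1S gave a log2 fold change of 0.71 (SE 0.24) (edgeR adjusted p = 0.350) and AAV-ATF6N one of 0.77 (SE 0.24) (edgeR adjusted p = 0.292).

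Sqle, the squalene epoxidase, was low throughout, at 2.51 and 1.54 CPM in AAV-GFP, 4.31 and 3.43 with AAV-XBP1S, and 2.65 and 4.18 with AAV-ATF6N. Here too the 4 libraries given a factor were above both controls, with log2 fold changes of 0.93 (SE 0.38) and 0.75 (SE 0.38) and edgeR adjusted p-values of 0.425 and 0.397. Cyp51, the lanosterol demethylase, was at 14.6 and 21.6 CPM in AAV-GFP, 18.0 and 34.1 with AAV-XBP1S, and 32.2 and 32.6 with AAV-ATF6N. In AAV-ATF6N its log2 fold change was 0.84 (SE 0.35) with an edgeR adjusted p of 0.371, whereas the 2 AAV-XBP1S libraries lay on either side of the upper control.

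The other genes of the stretch had log2 fold changes from -0.51 (Tm7sf2, a sterol reductase) to 0.65 (Ebp) in AAV-ATF6N and from -0.41 (Fdft1) to 0.42 (Ebp) in AAV-XBP1S. They include Lss, the lanosterol synthase, Nsdhl, a sterol dehydrogenase, and Dhcr7, the last reductase before cholesterol. Ebp and Nsdhl are on the X chromosome. Exons of Fdft1 share 774 bases with Ctsb on the opposite strand, and 188 bases of Lss and 9 of Tm7sf2 also lie in exons of a neighbour, so their reads could be split or shared, since the library kits do not mark strand.

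The 5 genes that regulate SREBP had log2 fold changes against AAV-GFP from -0.47 to 0.56 in AAV-XBP1S and from -0.23 to 0.30 in AAV-ATF6N. Srebf1, which encodes SREBP1, the form tied most to fatty acid synthesis, was at 23.8 and 33.4 CPM in AAV-GFP, 27.1 and 32.1 with AAV-XBP1S, and 36.2 and 32.2 with AAV-ATF6N. Srebf2, which encodes SREBP2, the form tied most to sterol synthesis, was at 17.4 and 27.4 CPM in AAV-GFP, 20.1 and 21.4 with AAV-XBP1S, and 19.1 and 19.0 with AAV-ATF6N. For both, each factor's libraries overlapped the control range, and the log2 fold changes of the pair were 0.05 (SE 0.24) and -0.11 (SE 0.26) under AAV-XBP1S, against 0.26 (SE 0.24) and -0.23 (SE 0.26) under AAV-ATF6N (edgeR adjusted p from 0.571 to 0.946). Counts per gene do not separate SREBP1a from SREBP1c or show how much of either protein was cut, and 107 bases of Srebf1 exons are shared with Rai1 on the opposite strand.

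Insig1, itself an SREBP target that retains SREBP in the ER, was at 4.11 and 6.97 CPM in AAV-GFP, 7.52 and 8.78 with AAV-XBP1S, and 6.89 and 6.71 with AAV-ATF6N. The lower control stood below the other 5 libraries, and both AAV-XBP1S libraries were above the rest, with a log2 fold change against AAV-GFP of 0.56 (SE 0.31) (edgeR adjusted p = 0.542). That value was 0.22 without the first AAV-GFP library and 1.02 without the second. Scap, the escort of SREBP, was at 36.9 and 58.4 CPM in AAV-GFP, 33.6 and 35.4 with AAV-XBP1S, and 46.9 and 48.0 with AAV-ATF6N. Both AAV-XBP1S libraries were below all others, with a log2 fold change of -0.47 (SE 0.26) against AAV-GFP (edgeR adjusted p = 0.542), while AAV-ATF6N lay between the 2 controls. Without the first AAV-GFP library the Scap value in AAV-XBP1S was -0.76, and without the second -0.06. Insig2 was at a log2 fold change of -0.01 in AAV-XBP1S and 0.18 in AAV-ATF6N.

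Fasn (chr11:120805958-120824547, mm10, minus strand) encodes the enzyme that assembles palmitate from malonyl-CoA, and its level was 14.0 and 19.5 CPM in AAV-GFP, 17.0 and 22.9 with AAV-XBP1S, and 60.6 and 53.1 with AAV-ATF6N. Both AAV-ATF6N libraries were above 50 CPM, while the other 4 lay between 14.0 and 22.9 CPM and overlapped. Against AAV-GFP the fold change in AAV-ATF6N was 3.40, a log2 fold change of 1.76 (SE 0.27) with an unadjusted p of 3.55e-04 and an adjusted p of 0.0539 by edgeR, just above the 0.05 threshold. The authors' deposited table gave 1.77 (SE 0.33) with an adjusted p of 1.07e-05, and DESeq2 on all 6 libraries gave 1.34e-06. Against AAV-XBP1S the log2 difference was 1.51 (SE 0.26) (edgeR adjusted p = 0.0731; DESeq2 adjusted p = 8.02e-05). In AAV-XBP1S the log2 fold change against AAV-GFP was 0.25 (SE 0.26) (edgeR adjusted p = 0.725).

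The difference of Fasn in AAV-ATF6N was between 1.42 and 2.04 on the log2 scale under 12 other ways of fitting the data, of which 5 passed the threshold, with adjusted p-values (edgeR or DESeq2) from 1.34e-06 to 0.467. Without the first AAV-GFP library, the one with the highest Rn45s share, it was 1.54, and without the second it was 2.04. The adipocyte markers named as under 1 CPM were so in both AAV-ATF6N libraries too. Fabp4 and Cidea, of the same list, were at 189 and 183 CPM and at 34.4 and 35.1 CPM in these libraries. The part of such markers in the Fasn difference was not tested.

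Acacb (chr5:114165518-114250758, mm10, plus strand) makes malonyl-CoA at the mitochondrial surface and was at 159.6 and 209.9 CPM in AAV-GFP, 97.7 and 137 with AAV-XBP1S, and 229 and 229 with AAV-ATF6N. Both AAV-XBP1S libraries were below the controls, and both AAV-ATF6N libraries were above them. Against AAV-GFP the log2 fold change was -0.66 (SE 0.24) in AAV-XBP1S (edgeR adjusted p = 0.389) and 0.31 (SE 0.24) in AAV-ATF6N (edgeR adjusted p = 0.508). The AAV-ATF6N value turned to -0.03 with the gene-length offset and was 0.13 without the first AAV-GFP library and 0.53 without the second. The AAV-XBP1S value stayed below 0 under the 12 alternatives, from -0.91 to -0.39. Between the 2 factors it differed by 0.97 (SE 0.25), a fold of 1.96, with an edgeR adjusted p of 0.159 and a DESeq2 adjusted p of 0.0220.

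The cytosolic carboxylase Acaca was at 3.16 and 1.94 CPM in AAV-GFP, 2.83 and 1.37 with AAV-XBP1S, and 2.06 and 1.38 with AAV-ATF6N, with overlapping groups and a difference between replicates in each group. Acss2, which makes acetyl-CoA from acetate, was at 29.2 and 57.6 CPM in AAV-GFP, 39.3 and 41.2 with AAV-XBP1S, and 53.4 and 52.9 with AAV-ATF6N, within the control range in both groups. Of its exons 113 bases are shared with a neighbouring transcript on the opposite strand. Of the 5 genes of acetyl-CoA supply and fatty acid synthesis, Fasn and Acacb separated AAV-ATF6N from AAV-GFP without overlap, both on the higher side. Acly, Acss2 and Acaca did not. Of all genes tested, 27.9% were apart on the higher side in this comparison and 26.7% on the lower.

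**Figure D2:**
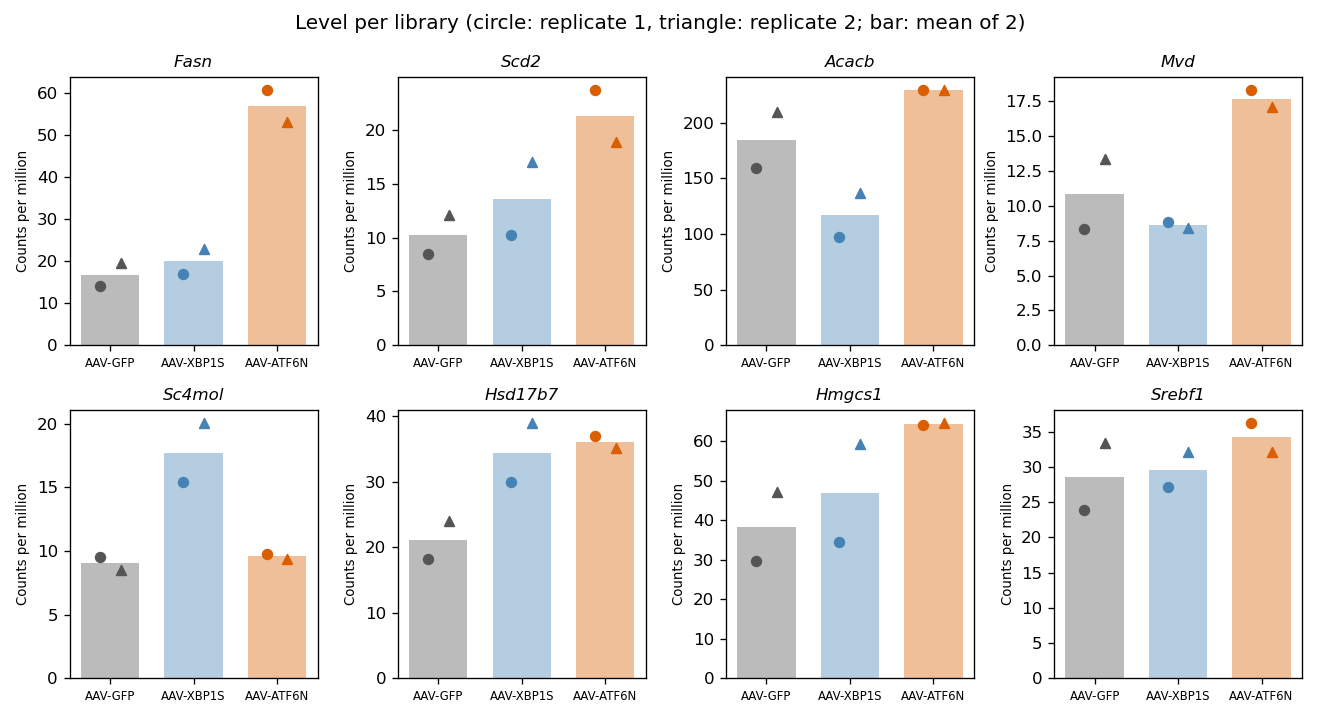
Level of 8 of the genes in each library, in CPM on linear axes from 0, with the bar at the mean of the 2 libraries. Fasn, Scd2 and Mvd are highest in both AAV-ATF6N libraries, Sc4mol in both AAV-XBP1S libraries, Acacb is lowest in AAV-XBP1S, and Hsd17b7 is above both controls in all 4 libraries given a factor.

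The 6 desaturases and elongases, which add double bonds to fatty acids or lengthen them, were all above 0 when AAV-XBP1S was set against AAV-GFP (median log2 fold change 0.51), and 0 passed the threshold by edgeR. The count was 6 in 9 of the 12 alternatives, 5 with the gene-length offset and without the second AAV-GFP library, and 4 without the second AAV-XBP1S library (median 0.31); Scd1 was below 0 in these 3, at -0.45 at the lowest, and Scd2 in the last, at -0.0045. Without the first AAV-GFP library the median was 0.49, and Fads1 was at 0.03. In AAV-ATF6N 4 of the 6 were above 0 with it (median 0.31) and 2 without it (median -0.16). Fads2, the enzyme that starts the synthesis of polyunsaturated fatty acids, was at 0.528 and 2.05 CPM in AAV-GFP, 2.76 and 3.76 with AAV-XBP1S, and 1.98 and 1.81 with AAV-ATF6N. The first AAV-GFP library was lowest, the 2 AAV-XBP1S libraries were highest, and AAV-ATF6N lay at the upper control. The log2 fold change in AAV-XBP1S was 1.35 (SE 0.61) with an edgeR adjusted p of 0.464, and without the first AAV-GFP library it was 0.67.

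Scd2 was the gene of this group with a larger difference in AAV-ATF6N, at 8.43 and 12.1 CPM in AAV-GFP, 10.2 and 17.0 with AAV-XBP1S, and 23.7 and 18.9 with AAV-ATF6N. Both AAV-ATF6N libraries were above all others, with a fold change of 2.07 against AAV-GFP, a log2 fold change of 1.05 (SE 0.33) and an edgeR adjusted p of 0.296. Of its exons 61 bases are shared with Mir5114. Scd1, its better known relative in liver and fat, was at 2.17 and 0.701 CPM in AAV-GFP, 1.12 and 1.98 with AAV-XBP1S, and 1.70 and 0.796 with AAV-ATF6N. The replicates of a group differed more than the groups did, with a log2 fold change of -0.21 (SE 0.67) in AAV-ATF6N, so a difference of the size of that of Scd2 was not detectable for Scd1.

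Elovl5, which lengthens polyunsaturated fatty acids, was at 21.3 and 33.6 CPM in AAV-GFP, 35.8 and 48.3 with AAV-XBP1S, and 29.6 and 27.5 with AAV-ATF6N, with both AAV-XBP1S libraries above the other 4. Its log2 fold change in AAV-XBP1S, 0.61 (SE 0.28), was 0.32 without the first AAV-GFP library and 1.02 without the second. Fads1, the partner of Fads2, had a log2 fold change of 0.34 (SE 0.28) under AAV-XBP1S and one of -0.12 (SE 0.28) under AAV-ATF6N. Elovl6, which lengthens palmitate, the product of Fasn, was near the limit of measurement, at 0.0203 and 0.393 CPM in AAV-GFP, 0.946 and 0.636 with AAV-XBP1S, and 0.345 and 0.337 with AAV-ATF6N. The first AAV-GFP value is 2 counts, so no fold is given. Directly compared, AAV-ATF6N was below AAV-XBP1S for 5 of the 6 genes, with a median log2 difference of -0.51 and Scd2 as the exception at 0.65. The count was 4 of 6 without the second AAV-XBP1S library and without the second AAV-ATF6N library. The endothelial marker sum was also higher in AAV-XBP1S, and its part in this was not tested.

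Stard4, which carries cholesterol between membranes, was at 2.37 and 2.97 CPM in AAV-GFP, 4.44 and 3.81 with AAV-XBP1S, and 4.04 and 2.63 with AAV-ATF6N. Both AAV-XBP1S libraries were above both controls, and one of the AAV-ATF6N libraries was between the controls. AAV-XBP1S differed from AAV-GFP by 0.63 (SE 0.33) on the log2 scale (edgeR adjusted p = 0.522) and AAV-ATF6N by 0.32 (SE 0.33) (edgeR adjusted p = 0.599).

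**Figure D3:**
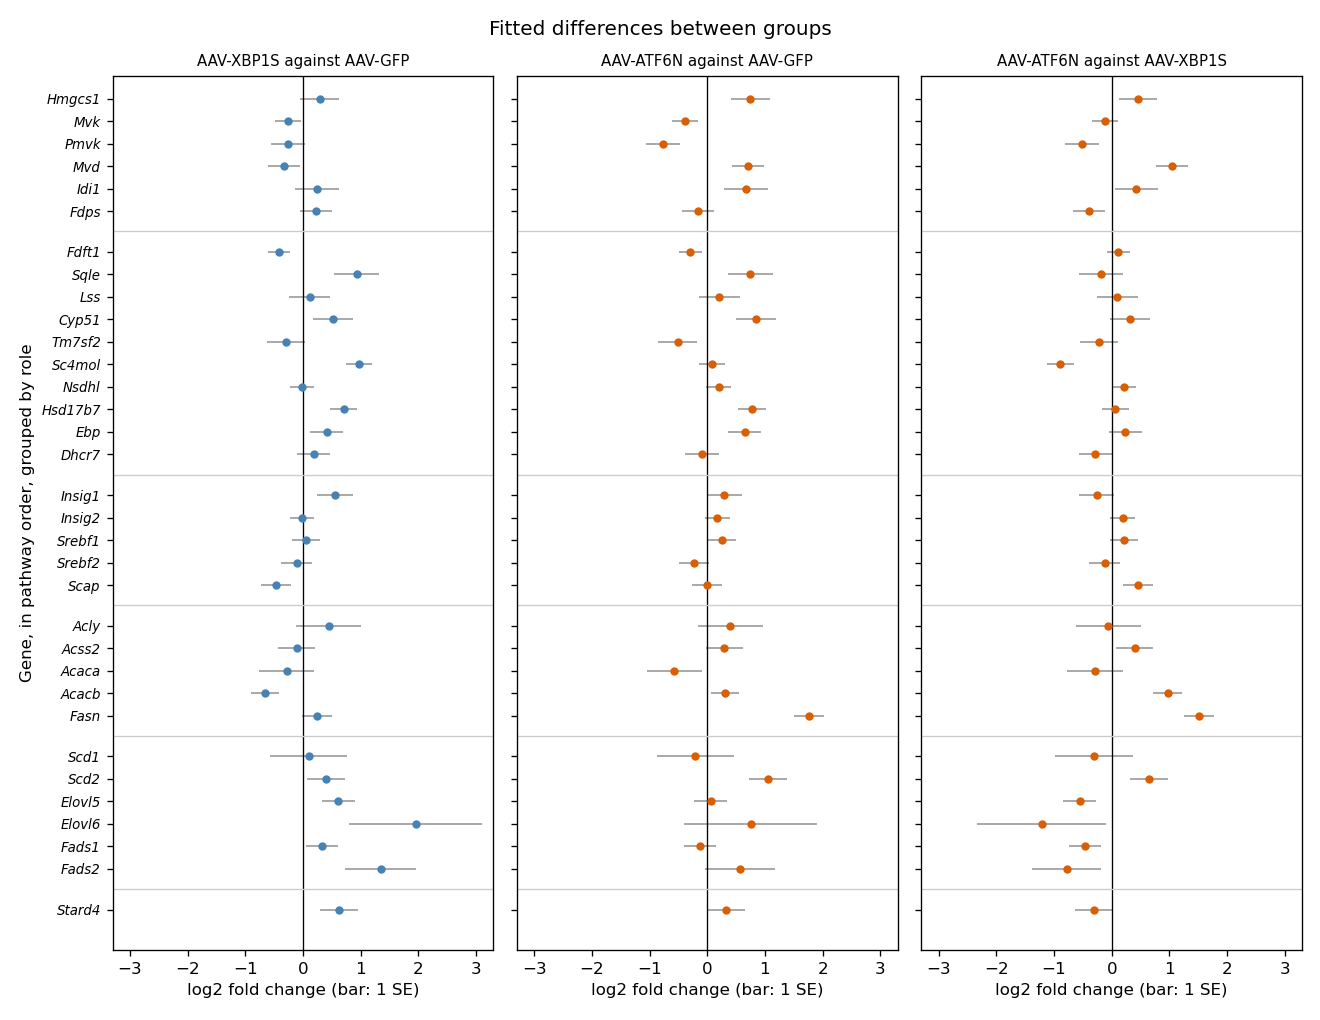
Log2 fold change of each of the 33 genes in the 3 comparisons, with bars of 1 SE, grouped by role. In AAV-ATF6N against AAV-GFP Fasn is furthest from 0 at 1.76; in the direct comparison Fasn, Mvd and Acacb are on the higher side and Sc4mol on the lower.

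Counted over the list, AAV-XBP1S against AAV-GFP gave 0 of 33 genes past the threshold by edgeR, where 0.315% of all genes tested passed. At an unadjusted p under 0.05 there were 4 (12.1%, against 11.6% of all genes), namely Sqle, Sc4mol and Hsd17b7 on the higher side and Acacb on the lower. DESeq2 called 1 (3.03%, against 3.17%), Sc4mol, and the authors' deposited table called 0 at the same threshold (1.31% of all genes in it). Both libraries were above both controls for 8 genes (24.2%, against 19.1%) and below them for 4 (12.1%, against 16.8%). All these shares were near those of all genes. Signs were split, with 21 genes above 0 and 12 below, and the median log2 fold change was 0.23, beside -0.01 over all genes.

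In AAV-ATF6N against AAV-GFP, edgeR again called 0 of 33 (0.514% of all genes). At an unadjusted p under 0.05 there were 6 (18.2%, against 13.5%): Mvd, Cyp51, Hsd17b7, Fasn and Scd2 on the higher side and Pmvk on the lower. DESeq2 called 1 (3.03%, against 3.76%) and the authors' deposited table also called 1 (3.03%, against 2.71%), Fasn in both. Groups were apart on the higher side for 12 genes (36.4%, against 27.9%) and on the lower side for 4 (12.1%, against 26.7%). With 22 genes above 0 and 11 below, the median log2 fold change was 0.26, beside -0.02 over all genes. The 2 comparisons with AAV-GFP share the same control libraries.

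Both medians rested on the first AAV-GFP library. That of AAV-XBP1S also rested on the second AAV-XBP1S library, without which it was -0.0045. For the 10 genes from squalene to cholesterol the median was 0.30 in AAV-XBP1S and 0.21 in AAV-ATF6N. Without the first AAV-GFP library these were 0.29 and 0.32. Without the second AAV-XBP1S library the AAV-XBP1S median of these 10 genes was 0.02. Over all 33 and without the first AAV-GFP library, 19 genes were above 0 for AAV-XBP1S (median log2 fold change 0.03, beside 0.04 over all genes). For AAV-ATF6N 18 of 33 were above 0 in that fit (median 0.03, beside 0.01). Without the second AAV-GFP library instead, edgeR called 2 genes in AAV-XBP1S (6.06%, against 2.11% of all genes), Acly and Fads2, and 8 in AAV-ATF6N (24.2%, against 20.0%), with Mvd, Hsd17b7, Acly, Acss2, Fasn, Elovl6 and Fads2 higher and Pmvk lower. A control group of 1 library takes its spread from the other groups in these fits.

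**Figure D4:**
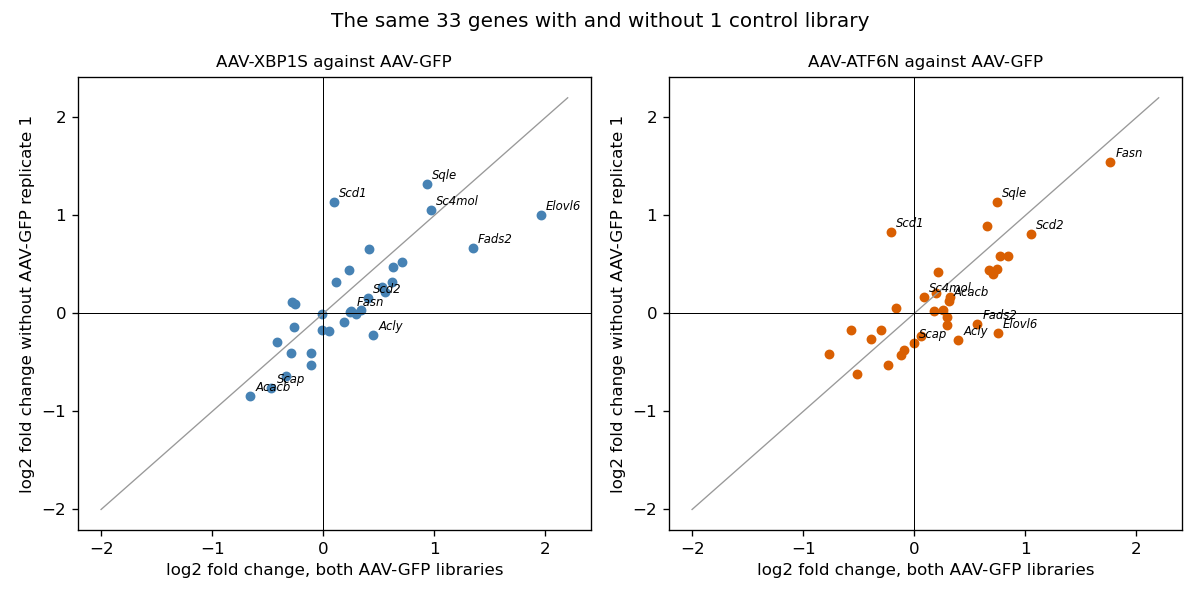
Log2 fold change of the 33 genes against AAV-GFP with both control libraries (horizontal) and without AAV-GFP replicate 1 (vertical), for each factor; the grey line marks equal values. In each panel 22 of the 33 points lie below the line, Acly, Fads2 and Elovl6 well below it, whereas Fasn in AAV-ATF6N is at 1.76 and 1.54 and Sc4mol in AAV-XBP1S at 0.97 and 1.05.

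The direct comparison of AAV-ATF6N with AAV-XBP1S does not use the control libraries for its difference. By edgeR 0 of 33 genes passed (0.226% of all genes), and 4 had an unadjusted p under 0.05 (12.1%, against 13.2%). DESeq2 called the same 4 (12.1%, against 5.39%): Fasn, Acacb and Mvd, higher in AAV-ATF6N, and Sc4mol, higher in AAV-XBP1S. The AAV-ATF6N libraries were both above the AAV-XBP1S libraries for 12 genes (36.4%, against 30.1%) and both below for 9 (27.3%, against 26.8%). Signs were even, at 16 above and 17 below 0, with a median of -0.06 beside -0.01 over all genes. In the edgeR fit without the first AAV-GFP library, the spread came from the AAV-XBP1S and AAV-ATF6N pairs alone. The log2 differences there were 1.51 for Fasn, 1.04 for Mvd and 0.97 for Acacb. These 3 genes passed in that fit, 9.09% of the 33, where calls over all genes rose to 4.75%.

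Genes around the pathway, 44 in 5 lists, were measured beside the 33; 43 passed the filter and 0 passed the edgeR threshold in any comparison. DESeq2 called 1 (2.33%, against 3.17% of all genes) in AAV-XBP1S against AAV-GFP, 4 (1 higher, 3 lower; 9.30%, against 3.76%) in AAV-ATF6N against AAV-GFP and 4 (9.30%, against 5.39%) between the factors. Against AAV-GFP, 3 were higher and 7 lower in AAV-ATF6N at an unadjusted p under 0.05 (23.3%, against 13.5% of all genes), and 1 was higher and 6 lower in AAV-XBP1S (16.3%, against 11.6%). Between the factors 3 were higher and 5 lower in AAV-ATF6N (18.6%, against 13.2%).

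In cholesterol handling, Lipa, the lysosomal acid lipase that frees cholesterol from its esters, was at 19.6 and 23.4 CPM in AAV-GFP, 20.6 and 23.6 with AAV-XBP1S, and 55.5 and 54.5 with AAV-ATF6N. Both AAV-ATF6N libraries were clear of the other 4, with a log2 fold change of 1.35 (SE 0.21) and an edgeR adjusted p of 0.0556, the pattern and nearly the adjusted p of Fasn. Stard3, an endosomal cholesterol transporter, was lower in both groups, at -0.69 and -0.84 on the log2 scale (edgeR adjusted p = 0.286 and 0.193). Of the efflux and LXR genes, Mylip, which marks the LDL receptor for degradation, was at 13.9 and 11.7 CPM in AAV-GFP, 13.2 and 15.1 with AAV-XBP1S, and 5.38 and 6.20 with AAV-ATF6N, with AAV-ATF6N below the rest by a log2 fold change of -1.14 (SE 0.23) (edgeR adjusted p = 0.127). Nr1h3, the sterol sensor LXRα, was lower in both, at -0.72 and -0.94 (edgeR adjusted p = 0.337 and 0.217).

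Of the 8 genes of SREBP cleavage and sterol-regulated degradation, 7 were above 0 in AAV-ATF6N, and 0 had an unadjusted p under 0.05 in any comparison. Rnf139 and Erlin2, both of the degradation machinery, had the smallest p, with log2 fold changes of 0.36 (SE 0.25) and 0.72 (SE 0.50). In the fatty acid list, Mlycd, which breaks malonyl-CoA down and so opposes Acacb, was at 293 and 264 CPM in AAV-GFP, 176 and 154 with AAV-XBP1S, and 183 and 185 with AAV-ATF6N. Both factors lay below the controls, by -0.75 (SE 0.19) and -0.60 (SE 0.19) on the log2 scale (edgeR adjusted p = 0.232 and 0.297). Slc25a1, the citrate carrier that feeds Acly, was at 9.06 and 7.58 CPM in AAV-GFP, 9.37 and 9.34 with AAV-XBP1S, and 4.46 and 5.17 with AAV-ATF6N, lower in AAV-ATF6N by -0.79 (SE 0.24) against AAV-GFP (edgeR adjusted p = 0.277), in the libraries in which Fasn was highest.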

How the data were processed

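The 6 libraries were made from sorted cardiomyocytes with a SMART-Seq kit and Nextera XT, per the labels. The deposited table gives whole-number counts per gene, and the submitters' processing notes name STAR, featureCounts and the mm10 build; no version, annotation, strand or multi-mapping setting is stated in the sources used here. The authors' deposited tables for each factor against AAV-GFP hold, per the file headers, the mean normalized signal, a log2 fold change with its SE, a Wald statistic (a score) and p-values, also adjusted; the notes name DESeq2 and DESeq. Counts were tested with edgeR 4.0.16 (limma 3.58.1, R 4.3.3): filterByExpr with a count minimum of 10, TMM, glmQLFit over the 6 libraries with a term for group alone, glmQLFTest, and Benjamini-Hochberg adjustment over 14587 genes at 0.05, two-sided. An SE is the log2 fold change divided by the root of its F. DESeq2 1.42.0 was an alternative. Depth was 67702482 to 112049342 counts per library, and 0 columns were left out. The fit was tested on simulated counts. Alternatives were RLE size factors, no filter, DESeq2, a replicate block, a fit of only the 2 groups compared, an offset for gene length and leaving out each library in turn, 12 in all. The 33 genes, the gene lists and the tests were chosen with earlier results of these data known. Values per library are given for genes called by edgeR or the authors, for the 2 genes per role with the smallest p against AAV-GFP and for 9 genes picked by name; of the other lists, the 2 with the smallest p are named, except in the sterol synthesis list, whose single genes are not reported here. Values per library of Acly, Acaca, Acss2, Cyp51, Elovl5 and Elovl6 were added after their values were seen. The labels do not say whether replicate numbers pair the libraries. Deviations of same-numbered libraries correlated at 0.38 between AAV-GFP and AAV-XBP1S. The correlation was -0.04 between AAV-GFP and AAV-ATF6N and -0.05 between AAV-XBP1S and AAV-ATF6N. The fit had no term for replicate number, so a difference that same-numbered libraries share was not modelled. Over all genes, edgeR called 92 higher and 73 lower in AAV-XBP1S against AAV-GFP with the replicate block, and 26 and 20 without it.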

Additional observations from a re-analysis of the deposited data

How the results depend on the processing

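Of 396 fitted values of single genes per comparison (33 genes, 12 alternatives), 4 newly passed the threshold in AAV-XBP1S against AAV-GFP, 12 in AAV-ATF6N against AAV-GFP and 16 between the factors, and 0 called values changed sign. Signs of uncalled values changed for 27 values in 17 genes, 20 in 15 genes and 14 in 10 genes. In AAV-XBP1S against AAV-GFP the count of higher genes, 0 in the report, was 1 with DESeq2 (290 over all genes, against 26 in the report's fit) and 0 to 2 when each library was left out in turn (1 to 218 over all genes); that of lower genes was 1 with the gene-length offset (166 over all genes, against 20; Acacb, -0.83, edgeR adjusted p = 0.0493); the median was -0.0045 (without AAV-XBP1S replicate 2) to 0.50 over the leave-one-out fits. In AAV-ATF6N against AAV-GFP the count of higher genes was 1 without the filter on low counts, 1 with DESeq2, 1 with the replicate block and 1 with the gene-length offset, in each case Fasn (edgeR adjusted p = 0.00171, 0.0101 and 0.0308 for the 3 edgeR fits), and 0 to 7 when libraries were left out; that of lower genes was 0 to 1. Over all genes the higher count was 51 in the report's fit, 226, 342, 163 and 130 in those 4 fits and 6 to 1549 when libraries were left out, the most without AAV-GFP replicate 2. Between the factors the count of higher genes was 1 without the filter, 3 with DESeq2, 1 with the replicate block, 3 with only the 2 groups compared, 2 with the gene-length offset and 0 to 3 when libraries were left out, while over all genes it was 25 in the report's fit, 175, 305, 145, 274 and 246 in those 5 fits and 1 to 296 when libraries were left out; that of lower genes was 1 with DESeq2 (498 over all genes, against 8); the median was -0.0827 to 0.1264 over the leave-one-out fits, the highest without AAV-XBP1S replicate 2, and 0.1028 without AAV-ATF6N replicate 2. In AAV-ATF6N against AAV-GFP the 1 lower gene was Pmvk, at -1.04 without AAV-GFP replicate 2. The lower count over all genes was 24 in the report's fit and was also highest, by far, without that library. The cause of these differences was not tested. RLE size factors changed no count. Log2 fold changes of 26 of the 33 genes in AAV-XBP1S and 25 in AAV-ATF6N moved by over 1.5 times or changed sign without AAV-GFP replicate 1, as did 27 and 22 without AAV-GFP replicate 2.

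With 2 libraries a group, an exact permutation test of a single gene cannot go below p = 0.333, and the tests rest on spread shared across genes (residual df 3, prior df 3.73). A gene whose replicates differ by over 2-fold, such as Acly, Scd1, Elovl6 or Fads2, leaves moderate differences undetectable. Counting error is largest for Elovl6, at 2 to 88 counts per library.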
